A study of Homo sapiens with 12 samples.

Results

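Molecular chaperones are proteins that help other proteins fold, keep them soluble and pass damaged ones on for degradation. In the cytosol this work is shared by the HSP70 and HSP90 families, their J-domain and nucleotide exchange partners and the small heat shock proteins, while the endoplasmic reticulum (ER) holds its own HSP70 and HSP90. Several of these genes are classical targets of heat shock factor 1, and the ER members are targets of the unfolded protein response, so that their transcripts are widely read as gauges of protein stress in the cytosol and in the ER. The 10 genes described here are HSPA1A, HSPA1B, HSPA8, HSPH1, HSP90AA1, DNAJB1, HSPB1, CRYAB, HSPA5 and HSP90B1. They were chosen by gene symbol from a table of 48162 genes, and all 10 were found in it.

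RNA was sequenced from Caco-2 spheroids, where Caco-2 is an established human colorectal adenocarcinoma line that acquires features of absorptive enterocytes. Each of the 4 groups had 3 libraries and an exposure of 4 h: methotrexate, an antifolate drug; methotrexate/lactoferrin, both agents together; lactoferrin, an iron-binding milk protein; and control, which received the carrier fluid. All groups shared the cell line at passage 26, Matrigel, 5 days of culture without a change of medium, and DMEM with 20% serum, antibiotics and non-essential amino acids. The sources used here give no doses. They also do not state that the libraries within a group are separate cultures, so p-values measure a spread between libraries that may be technical. Levels are CPM, which relate a gene's count to the library total, after TMM scaling, which sets libraries to a common scale on the assumption that most genes do not differ. Tests are edgeR's quasi-likelihood F test with Benjamini-Hochberg adjustment over the 16733 genes tested, called under 0.05. Fold changes are on the log2 scale and are given ± SE. This SE is the absolute log2 fold change over the square root of the F statistic, and it is approximate where a group holds few counts.

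The methotrexate libraries stood apart from the other 9 in several ways that bear on every comparison with them. They held 47459811 to 60591667 counts, against 18714054 to 23859094 in the other 9 libraries. Mitochondrially encoded genes took 6.67 to 7.54% of their counts, against 2.00 to 3.34% elsewhere. All 10 epithelial markers were detected in every group, but their summed level was 3023 to 3274 CPM with methotrexate and 6379 to 6742 CPM in control. Transcripts that a colon epithelial line is not known for were high in the methotrexate libraries. The 8 adipocyte markers summed to 15304 to 15857 CPM with methotrexate and 33.7 to 38.0 CPM in control. The 10 fibroblast markers summed to 9934 to 11446 CPM with methotrexate and 931 to 1041 CPM in control, where FBLN1 made up most of the sum and DPT was at 0. Adipocytes and fibroblasts are cells of connective tissue and are not part of the cultured line. The 6 muscle and pericyte markers summed to 141 to 159 CPM with methotrexate and 8.63 to 11.3 CPM in control. TAGLN, at 111 CPM, and ACTA2, at 32.1 CPM, made up most of the methotrexate sum. CNN1, MYH11, RGS5 and DES averaged 5.05, 1.52, 0.732 and 0.405 CPM with methotrexate. The 7 endothelial markers in the table summed to 9.70 to 10.6 CPM with methotrexate and 1.93 to 2.68 CPM in control, and the 8 blood markers to 33.8 to 41.7 CPM with methotrexate and 29.1 to 32.3 CPM in control. The sum of each of the 5 lists of non-epithelial markers was thus higher in all methotrexate libraries than in any control library. Single markers that went the other way were FBLN1, at 471 CPM with methotrexate and 877 CPM in control, and the blood marker LYZ, at 7.47 CPM with methotrexate and 17.3 CPM in control. CD14 averaged 29.3 CPM with methotrexate and 13.5 CPM in control, and the blood markers CD68 and HBB were at 0 in both groups. The part of these transcripts in the results below was not tested. In RNA from a whole culture, fewer cells of a type and less RNA per cell cannot be told apart. The log2 fold changes of the 10 genes, and the counts of the gene lists, are therefore also given after scaling the libraries on the median ratio of 36 brush border and junction genes, called epithelial scaling here. It moved the median log2 fold change of all genes tested, methotrexate over control, to 0.94 from 0.03 under TMM scaling. Levels in CPM are on the TMM scale throughout, and every network gene named below as higher under TMM was also called higher under epithelial scaling.

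The promoter sequences show which of the genes carry the stress elements that the families are known for. Heat shock factor trimers bind repeats of the letters GAA in alternating orientation, and an ER stress response element has the letters CCAAT and CCACG at a fixed spacing. Promoters from RefSeq on build GRCh38.p14 were found for 9 of the 10 genes, CRYAB being the exception. The 250 bases upstream of each start were searched on both strands for GAANNTTC, for TTCNNGAA and for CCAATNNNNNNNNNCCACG. The first 2 overlap where GAA repeats follow each other. GAANNTTC occurred in 5.78% and TTCNNGAA in 6.62% of 35116 promoters, and either of them in 11.6%. The ER element occurred in 26 promoters, or 0.074%. Either GAA form was present upstream of 6 of the 9 genes, HSPA1A, HSPA1B, HSPA8, HSP90AA1, DNAJB1 and HSPB1. The ER element was present upstream of HSPA5 and HSP90B1, and HSPH1 had neither in this window. The shares above count single promoter windows, whereas the members are counted by gene with a match in any window. DNAJB1 had 3 annotated starts and HSP90AA1 had 2, and in each only 1 of the windows held a match. A match describes letters and does not show that a factor bound.
Capitals mark the matches in the 6 windows shown, which stand for the inducible HSP70 pair, its J-domain partner, a small heat shock protein and the ER pair. HSPA1A lies at chr6:31815293-31815542 on the plus strand, HSPA1B at chr6:31827488-31827737 on the plus strand, DNAJB1 at chr19:14518398-14518647 on the minus strand, HSPB1 at chr7:76302423-76302672 on the plus strand, HSPA5 at chr9:125241344-125241593 on the minus strand and HSP90B1 at chr12:103930160-103930409 on the plus strand.
HSPA1A: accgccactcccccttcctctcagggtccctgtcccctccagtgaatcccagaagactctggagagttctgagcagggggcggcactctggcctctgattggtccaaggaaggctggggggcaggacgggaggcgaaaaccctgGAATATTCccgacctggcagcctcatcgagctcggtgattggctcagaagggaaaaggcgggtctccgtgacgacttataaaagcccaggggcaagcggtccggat
HSPA1B: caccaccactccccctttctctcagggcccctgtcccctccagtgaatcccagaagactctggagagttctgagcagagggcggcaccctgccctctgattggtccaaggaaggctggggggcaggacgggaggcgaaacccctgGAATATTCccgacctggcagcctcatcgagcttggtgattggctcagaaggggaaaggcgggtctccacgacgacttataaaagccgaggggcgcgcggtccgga
DNAJB1: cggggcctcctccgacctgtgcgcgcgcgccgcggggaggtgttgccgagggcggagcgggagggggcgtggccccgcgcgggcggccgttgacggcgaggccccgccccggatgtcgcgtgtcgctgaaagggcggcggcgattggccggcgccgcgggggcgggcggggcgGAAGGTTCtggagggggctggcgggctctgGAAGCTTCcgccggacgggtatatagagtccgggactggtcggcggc
HSPB1: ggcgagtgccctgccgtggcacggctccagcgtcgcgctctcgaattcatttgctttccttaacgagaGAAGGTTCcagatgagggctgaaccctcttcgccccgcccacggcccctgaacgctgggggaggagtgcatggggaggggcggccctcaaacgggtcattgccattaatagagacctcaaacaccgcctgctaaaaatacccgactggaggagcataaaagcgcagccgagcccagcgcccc
HSPA5: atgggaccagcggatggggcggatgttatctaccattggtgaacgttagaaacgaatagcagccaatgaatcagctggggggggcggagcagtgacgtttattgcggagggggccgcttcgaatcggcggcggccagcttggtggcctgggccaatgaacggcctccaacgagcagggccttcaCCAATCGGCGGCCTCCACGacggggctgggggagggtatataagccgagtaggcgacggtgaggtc
HSP90B1: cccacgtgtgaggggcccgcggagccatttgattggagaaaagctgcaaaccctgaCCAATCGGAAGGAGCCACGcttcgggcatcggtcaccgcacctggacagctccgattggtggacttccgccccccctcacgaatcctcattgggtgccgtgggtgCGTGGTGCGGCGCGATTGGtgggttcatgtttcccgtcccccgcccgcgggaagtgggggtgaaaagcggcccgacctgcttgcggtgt
The HSPA1A and HSPA1B windows were identical at 235 of 251 aligned columns, or 93.6%, and both carry the same GAATATTC. In HSP90B1 the ER element occurs once in each orientation, and its second capital run is the element read on the other strand.

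Methotrexate alone was first set against control, and the 10 genes did not move together. CRYAB and HSPB1, the small heat shock proteins, and DNAJB1, a J-domain protein, were higher with methotrexate than in control under both scalings. HSPA8, HSPH1, HSPA5 and HSP90B1 were lower under TMM scaling, and under epithelial scaling all 4 had log2 fold changes above 0. HSPA1A, HSPA1B and HSP90AA1 were not called under TMM scaling and were called higher under epithelial scaling. That makes 3 of 10 members higher, 4 lower and 3 not called, where 35.4% of all genes tested were called higher and 29.1% lower, or 64.5% in either direction. The count of 3 includes CRYAB, which passed the filter on low counts only through the methotrexate libraries and so had to differ. Under epithelial scaling 9 members were called higher and 0 lower, where 75% of all genes were called higher and 0.628% lower. The members' median log2 fold change was -0.05 under TMM and 0.87 under epithelial scaling, beside 0.03 and 0.94 for all genes, so the shares and medians lay near the background.

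**Figure D1:**
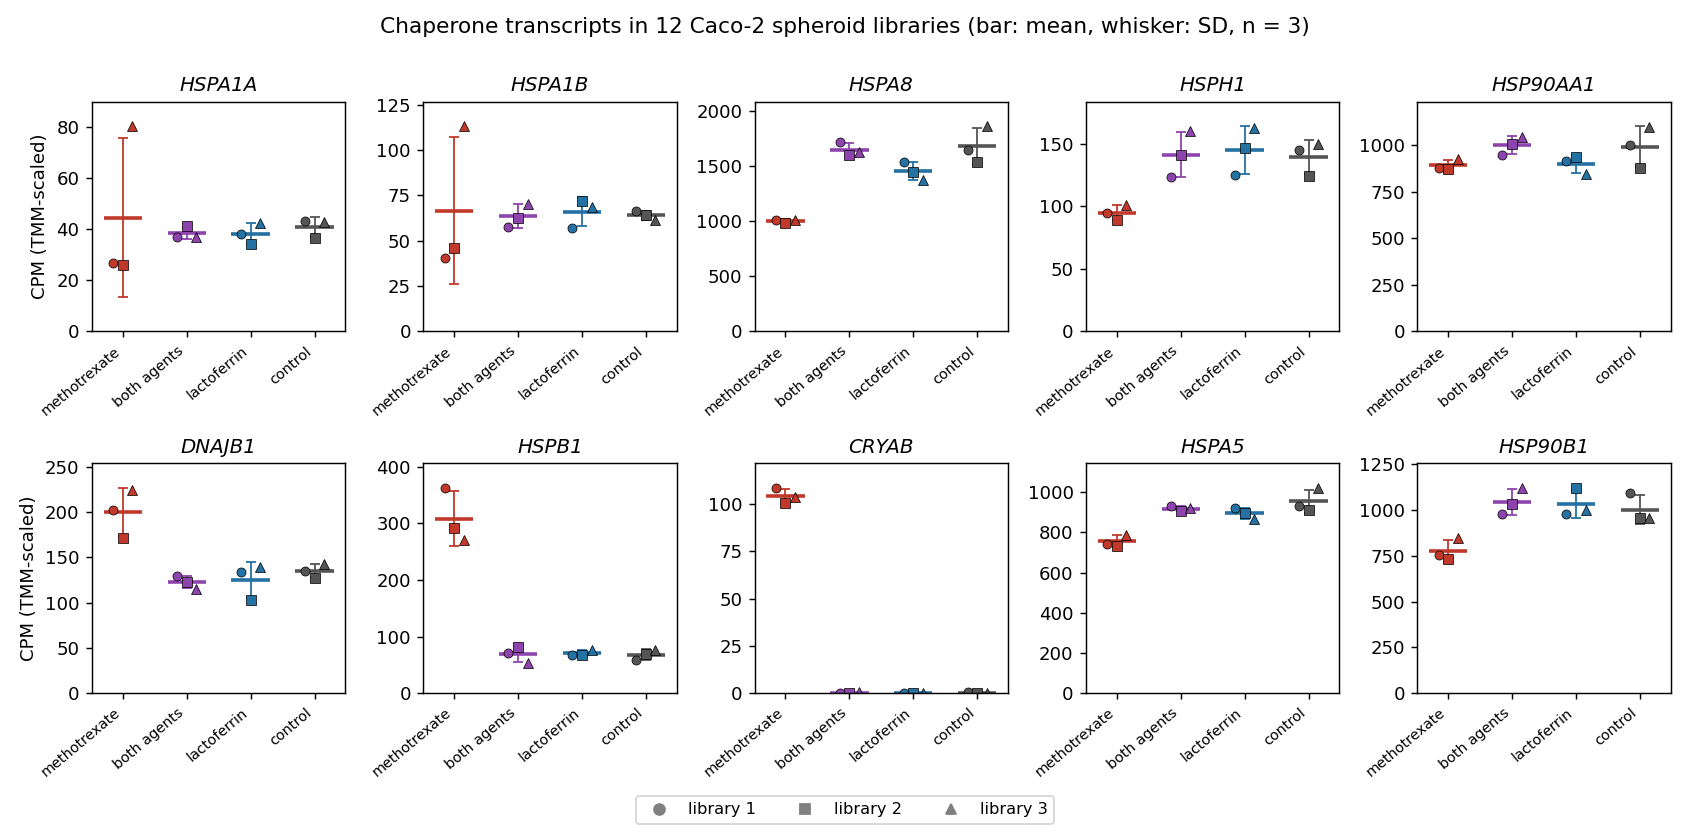
Levels of the 10 chaperone genes in each of the 12 libraries, in CPM after TMM scaling, by group; bars are means and whiskers SD of 3 libraries. Methotrexate library 3 stands above the other 11 for HSPA1A and HSPA1B, while CRYAB is near 0 outside the methotrexate libraries.

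The constitutive cytosolic HSP70, HSPA8 (also called HSC70), uncoats clathrin vesicles and folds nascent chains in unstressed cells. Its gene is at chr11:122928197-122933938 on the minus strand of hg19, the build of the deposited coordinates. HSPA8 had 1010, 986 and 1013 CPM in methotrexate libraries 1 to 3, against 1648, 1536 and 1861 CPM in control. The methotrexate and control libraries did not overlap, as was the case for 71.5% of all genes, and the log2 fold change was -0.75 ± 0.09 (adjusted p = 1.52e-06) under TMM and 0.17 (adjusted p = 0.0786) under epithelial scaling. With both agents HSPA8 had 1715, 1603 and 1624 CPM, and with lactoferrin 1536, 1447 and 1374 CPM.

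HSPA1A and HSPA1B encode the stress-inducible HSP70, a protein that is nearly absent from many resting tissues and made in large amounts after heat or proteotoxic injury. The genes lie at chr6:31783291-31785717 and chr6:31795512-31798031 on the plus strand of hg19. Their sequences are nearly the same, so counts may be split between them. HSPA1A had 26.9, 26.02 and 80.3 CPM in methotrexate libraries 1 to 3, against 43.3, 36.5 and 42.8 CPM in control. HSPA1B had 40.7, 46.1 and 113 CPM in methotrexate libraries 1 to 3, against 66.5, 64.0 and 61.6 CPM in control. For both genes methotrexate libraries 1 and 2 lay below all control libraries and library 3 lay above them. The log2 fold change was 0.12 ± 0.30 (adjusted p = 0.742) for HSPA1A and 0.06 ± 0.27 (adjusted p = 0.858) for HSPA1B. Library 3 decided these values. Without it they were -0.63 ± 0.12 (adjusted p = 0.00034) for HSPA1A and -0.56 ± 0.12 (adjusted p = 0.001) for HSPA1B. Under epithelial scaling they were 1.05 (adjusted p = 0.00598) and 0.98 (adjusted p = 0.00399) with library 3. Without library 3 and with epithelial scaling they were 0.28 (adjusted p = 0.0629) and 0.34 (adjusted p = 0.0284). No direction for the inducible HSP70 held across these 4 settings. Summing the pair under TMM gave 0.08 ± 0.27 (adjusted p = 0.805) and, without library 3, -0.59 ± 0.10 (adjusted p = 0.000131). The split between the copies thus did not alter the dependence on library 3 under TMM. The sum was not fitted under epithelial scaling. The within-library ratio of HSPA1A to HSPA1B per length was 0.586 to 0.736 with methotrexate and 0.593 to 0.722 in control (exact permutation test, two-sided, p = 0.8). Since reads may be shared between the copies, a steady ratio cannot show whether 1 copy or both were high in library 3.

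HSPA1L, a testis-enriched HSP70 gene that overlaps HSPA1A on the other strand, had 1.80 CPM with methotrexate and 2.27 CPM in control. Whether the counting used strand is not stated, so reads of overlapping genes cannot be told apart. HSPA1L held 254 counts over the 3 methotrexate libraries, where HSPA1A held 6483.

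HSPH1, an HSP110 protein, exchanges nucleotide on HSP70 and takes part in pulling apart aggregates; its gene is at chr13:31710762-31736525 on the minus strand of hg19. It had 94.8, 88.8 and 101 CPM with methotrexate, against 145, 124 and 149 CPM in control. No methotrexate library reached the lowest control library, and the log2 fold change was -0.56 ± 0.12 (adjusted p = 0.000803) under TMM but 0.36 (adjusted p = 0.0192) under epithelial scaling. Libraries with both agents had 123, 141 and 160 CPM and those with lactoferrin 125, 147 and 163 CPM, within or near the control range.

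DNAJB1 (HSP40) delivers clients to HSP70 and stimulates its ATPase; its gene is at chr19:14625582-14640582 on the minus strand of hg19. It had 203, 171 and 225 CPM with methotrexate, against 135, 128 and 143 CPM in control, and the 2 groups did not overlap. The log2 fold change was 0.56 ± 0.12 (adjusted p = 0.000799), a 1.48-fold higher level, and 1.48 under epithelial scaling. The enoyl reductase gene TECR overlaps DNAJB1 on the other strand and averaged 408 CPM with methotrexate and 204 CPM in control, a log2 fold change of 1.00 ± 0.12 (adjusted p = 1.85e-06) under TMM. Its part in the DNAJB1 counts was not tested. DNAJB1 had 129, 123 and 116 CPM with both agents and 134, 103 and 140 CPM with lactoferrin.

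HSP90AA1 encodes the inducible cytosolic HSP90, which matures kinases and steroid receptors and, in the resting cell, holds heat shock factor 1 inactive. Its gene is at chr14:102547075-102606036 on the minus strand of hg19. It had 879, 873 and 925 CPM with methotrexate, against 1000, 876 and 1097 CPM in control. The groups overlapped through control library 2, and the log2 fold change was -0.15 ± 0.09 (adjusted p = 0.156). Without that library it was -0.24 (adjusted p = 0.0419), and under epithelial scaling it was 0.76 (adjusted p = 2.14e-06). WDR20, which overlaps it on the other strand, averaged 41.3 CPM with methotrexate and 30.7 CPM in control.

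HSPB1 (HSP27) is an ATP-independent holdase that also binds actin filaments and intermediate filaments; its gene is at chr7:75931861-75933612 on the plus strand of hg19. It had 362, 291 and 270 CPM with methotrexate, against 58.2, 69.2 and 76.6 CPM in control. Every methotrexate library lay above every other library. The log2 fold change was 2.18 ± 0.16 (adjusted p = 4.45e-09), a 4.53-fold higher level, and 3.09 under epithelial scaling. HSPB1 had 71.6, 80.8 and 53.0 CPM with both agents and 66.9, 67.4 and 76.7 CPM with lactoferrin.

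CRYAB, alpha-B crystallin, is a lens and muscle small heat shock protein that binds desmin and partly unfolded clients. Its gene is at chr11:111779289-111794446 on the minus strand of hg19. It had 109, 100 and 104 CPM with methotrexate, 0.212, 0.0485 and 0.410 CPM with both agents, 0.240, 0.0491 and 0.152 CPM with lactoferrin, and 0.383, 0.0402 and 0.169 CPM in control. These levels rest on 14814 counts over the 3 methotrexate libraries, and on 15, 9 and 13 counts over the 3 libraries with both agents, with lactoferrin and in control. CRYAB was thus abundant with methotrexate and at the edge of detection elsewhere. The log2 fold change was 9.08 ± 0.31, and 9.99 under epithelial scaling. This SE is approximate, since control held 13 counts. CRYAB passed the filter on low counts only through the methotrexate libraries and so had to differ, and its p-value is not given. HSPB2, C11orf52 and their readthrough gene overlap it on the other strand and held 10, 4 and 0 counts with methotrexate.

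The transcripts whose pattern was most like that of CRYAB were sought over the 12 libraries. Among the 9838 genes that averaged a log2 CPM of 3 or more, the smallest root mean square differences of centred log2 CPM were 0.64 for TF, the plasma iron carrier transferrin, and 0.69 for COL4A2. C10orf10 followed at 0.74, CAV1, the coat protein of caveolae, at 0.77, and COL4A1 at 0.78. COL4A1 and COL4A2 encode basement membrane collagen. The summed fibroblast and adipocyte markers were high in the same 3 libraries as CRYAB and HSPB1.

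In the ER lumen, HSPA5 (BiP) is the HSP70 that binds nascent secretory proteins and restrains the stress sensors of the unfolded protein response. Its gene is at chr9:127997132-128003609 on the minus strand of hg19. It had 744, 732 and 789 CPM with methotrexate, against 931, 913 and 1020 CPM in control. No library of one group reached the other, and the log2 fold change was -0.34 ± 0.08 (adjusted p = 0.00127) under TMM but 0.58 (adjusted p = 6.73e-06) under epithelial scaling. With both agents it had 932, 904 and 919 CPM and with lactoferrin 919, 895 and 868 CPM.

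HSP90B1 (GRP94) is the ER HSP90 and folds integrins and Toll-like receptors; its gene is at chr12:104323885-104347423 on the plus strand of hg19. It had 753, 730 and 846 CPM with methotrexate, against 1094, 954 and 955 CPM in control. Again the groups did not overlap, and the log2 fold change was -0.37 ± 0.09 (adjusted p = 0.00301) under TMM but 0.55 (adjusted p = 0.000165) under epithelial scaling. C12orf73, on the other strand, had 7.22 CPM with methotrexate and 9.87 CPM in control. HSP90B1 had 978, 1031 and 1119 CPM with both agents and 979, 1117 and 999 CPM with lactoferrin.

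**Figure D2:**
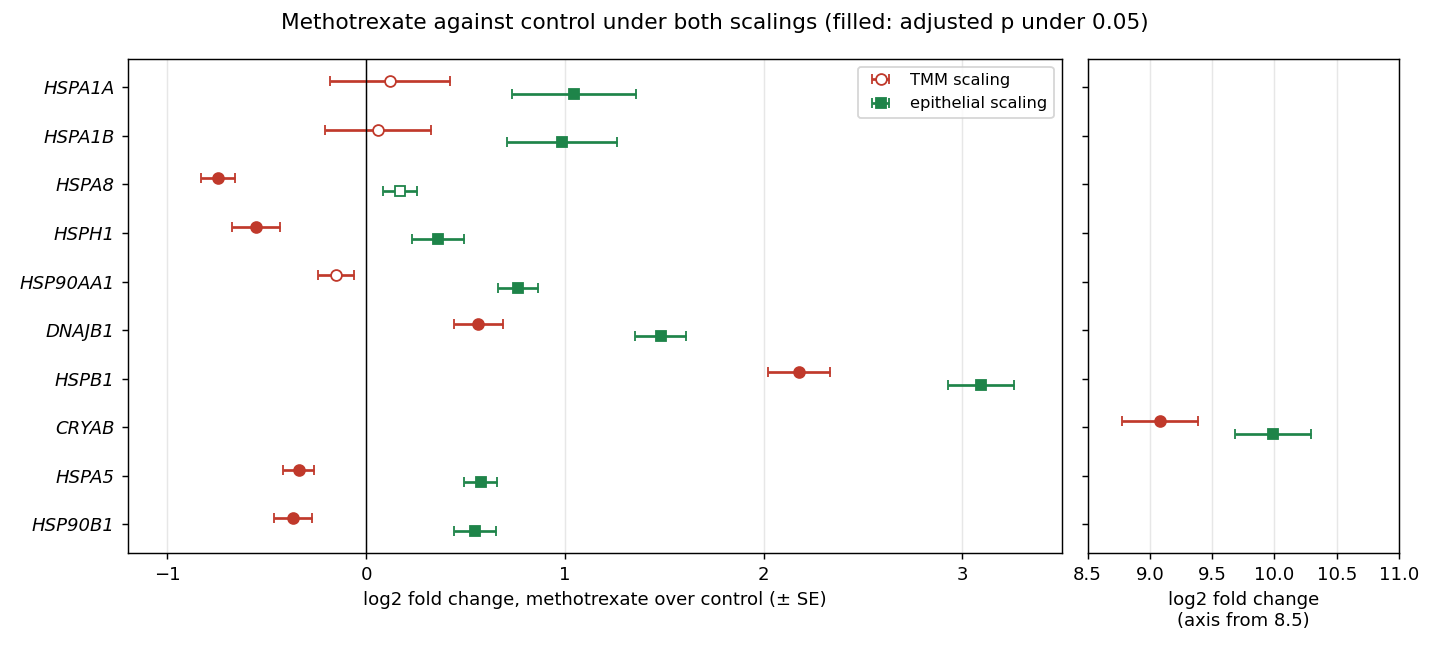
Log2 fold change of methotrexate over control for the 10 genes, with bars of ± 1 SE, under TMM scaling and under epithelial scaling; filled symbols have an adjusted p under 0.05. CRYAB, HSPB1 and DNAJB1 lie above 0 under both scalings, whereas HSPA8, HSPH1, HSP90AA1, HSPA5 and HSP90B1 lie below 0 under TMM and above 0 under epithelial scaling.

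Ratios between 2 genes within a library do not depend on the scaling. They were taken on levels per kilobase (CPM per kb) and compared with an exact two-sided permutation test, in which 3 against 3 libraries cannot give a p below 0.1. Relative to HSPA8, the J-domain partner DNAJB1 stood at 0.216 ± 0.0263 with methotrexate and 0.0876 ± 0.00352 in control (SD, n = 3 each, exact p = 0.1). HSPB1 stood at 0.520 ± 0.0795 of HSPA8 with methotrexate and 0.0686 ± 0.0083 in control (exact p = 0.1). The libraries of the 2 groups did not overlap for either ratio, which is an unequal change of the 2 genes under any scaling. The ratio of HSP90AA1 to HSPA8 was 0.624 ± 0.0154 with methotrexate and 0.413 ± 0.0128 in control, and that of HSPA5 to HSPA8 was 0.474 ± 0.0144 with methotrexate and 0.359 ± 0.0146 in control (exact p = 0.1 each). HSPH1 to HSPA8 differed less, at 0.0645 ± 0.00338 with methotrexate and 0.0566 ± 0.00302 in control (exact p = 0.1). The lactoferrin libraries, at 0.0554 to 0.0808, spanned the methotrexate range of 0.0614 to 0.0681, so this ratio did not set methotrexate apart. For HSPA5 to HSPA8 the lactoferrin libraries, at 0.377 to 0.398, also lay above those of control, at 0.346 to 0.374. The ER pair kept closer proportions, with HSPA5 to HSP90B1 at 0.756 ± 0.0288 with methotrexate and 0.744 ± 0.0842 in control (exact p = 0.8). After Benjamini-Hochberg adjustment over the 7 ratios tested, the 5 values of 0.1 become 0.14.

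**Figure D3:**
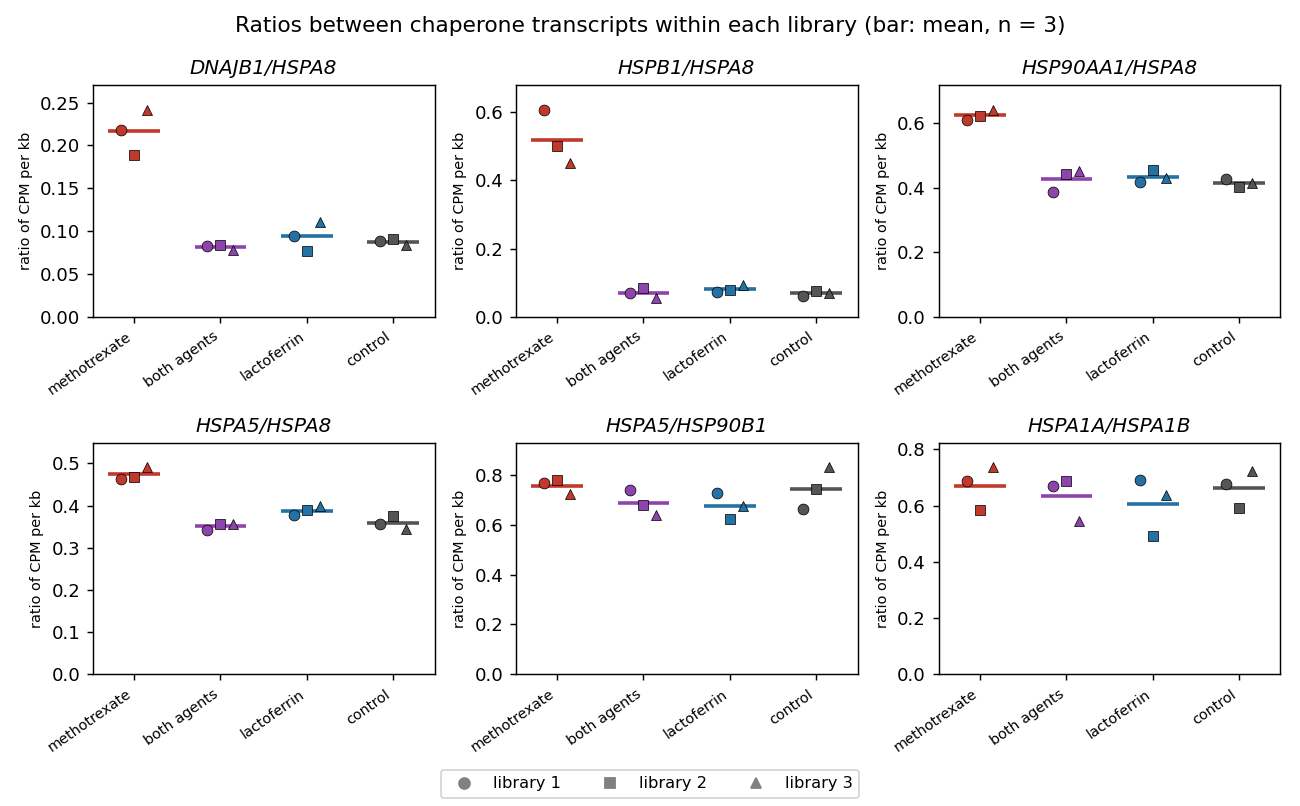
Ratios of CPM per kb between pairs of chaperone genes within each library, by group, with bars at the mean of 3 libraries. The methotrexate libraries lie apart from the other 9 for DNAJB1, HSPB1, HSP90AA1 and HSPA5 relative to HSPA8, and mix with them for HSPA5 to HSP90B1 and HSPA1A to HSPA1B.

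Per kilobase, HSPA8 was the most abundant of the 10 transcripts in every group, at 407 ± 6.05 CPM per kb with methotrexate and 683 ± 67.0 in control. With methotrexate HSP90B1 (256), HSP90AA1 (254), HSPB1 (212) and HSPA5 (193) followed, and each overlapped its neighbour in that order. CRYAB (93.1) and DNAJB1 (88.3) came next and overlapped, and HSPA1B (26.5), HSPH1 (26.3) and HSPA1A (18.3) closed the order, again with overlap. In control the order after HSPA8 was HSP90B1 (330), HSP90AA1 (282) and HSPA5 (244), of which HSP90AA1 and HSPA5 overlapped. DNAJB1 (59.7), HSPB1 (46.8), HSPH1 (38.6), HSPA1B (25.4), HSPA1A (16.8) and CRYAB (0.176) followed in control, where HSPB1 and HSPH1 overlapped. HSPB1 and CRYAB stood higher in the order with methotrexate than in control. As a share of the summed level of the 10 genes per kilobase, HSPA8 took 25.1 to 26.7% with methotrexate and 38.5 to 41.0% in control. HSPB1 took 11.3 to 15.7% with methotrexate and 2.30 to 2.97% in control, and CRYAB took 5.65 to 6.11% with methotrexate and 0.00224 to 0.0197% in control. The sum itself was 1496 to 1640 CPM per kb with methotrexate and 1600 to 1844 in control on the TMM scale, which overlap. Under epithelial scaling it was 2418 to 2798 with methotrexate and 1385 to 1571 in control, which do not overlap.

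The wider chaperone network, 127 genes in 10 lists that include the members, showed where the 10 genes sit among their relatives. Of the 121 tested, 34 were higher with methotrexate than in control, 45 lower and 42 not called, with a median log2 fold change of -0.15, where 35.4% of all genes were higher and 29.1% lower. Under epithelial scaling 105 were higher and 0 lower, where 75% of all genes were higher, and the median was 0.76, beside 0.94 for all genes. The counts of 34 and 105 include CRYAB, HSPB6 and HSPB7, which passed the filter on low counts only through the methotrexate libraries and so had to differ. These shares of all genes, and the all-gene medians of 0.03 and 0.94, are the background for each list that follows, and nothing particular to a list is read from its count. No test of one list against others was made.

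Small heat shock proteins had the largest values. The list holds 10 genes with HSPB or CRYA symbols, and a symbol such as HSPB11 does not by itself place a gene in the family. Of these 6 were tested, and 5 were higher with methotrexate than in control under both scalings. However, 3 of the 6 passed the filter only through the methotrexate libraries. HSPB6, a muscle small heat shock protein, had 13493 counts with methotrexate and 2 in control, a ratio of 3286 with a 95% counting interval of 909 to 27133. HSPB7, known from heart muscle, had 2044 counts with methotrexate and 0 in control, and its level was at least 332-fold higher against 3 counts over the group. HSPB8, which works with BAG3 in selective autophagy of misfolded clients, averaged 55.9 CPM with methotrexate and 1.66 CPM in control (log2 5.07 ± 0.14, adjusted p = 3.30e-14). HSPB11, at 9.14 CPM with methotrexate and 8.01 CPM in control, was not called under TMM (log2 0.19 ± 0.17, adjusted p = 0.328) and was called higher under epithelial scaling at 1.11 (adjusted p = 3.20e-05), where all 6 were higher. The summed fibroblast and adipocyte markers were high in the same libraries, and so was the muscle and pericyte sum, mostly through TAGLN and ACTA2.

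Among 12 J-domain proteins of the cytosol, 6 were higher with methotrexate, 1 lower and 5 not called, where 35.4% of all genes were higher and 29.1% lower, and under epithelial scaling all 12 were higher, where 75% of all genes were. DNAJB4 averaged 29.5 CPM with methotrexate and 1.95 CPM in control (log2 3.91 ± 0.22, adjusted p = 1.63e-10). DNAJB5 averaged 16.0 CPM with methotrexate and 2.66 CPM in control (log2 2.60 ± 0.22, adjusted p = 4.83e-08). DNAJC2, a ribosome-associated J-domain protein, was lower under TMM at log2 -0.32 ± 0.11 but above 0, at 0.59, under epithelial scaling.

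Of 13 HSP70 and HSP110 genes tested, 2 were higher with methotrexate, 5 lower and 6 not called (median log2 -0.01), and 11 were higher under epithelial scaling. HSPA12A, a distant HSP70 relative, averaged 32.4 CPM with methotrexate and 16.6 CPM in control, and HSPA13 averaged 36.6 CPM with methotrexate and 27.4 CPM in control. HSPA14, a ribosome-bound HSP70, had a log2 fold change of -0.58 ± 0.10 under TMM and 0.33 under epithelial scaling. Of the 4 HSP90 genes, 2 were lower and 2 not called under TMM, and all 4 were higher under epithelial scaling. HSP90AB1, the constitutive cytosolic HSP90, averaged 1390 CPM with methotrexate and 2082 CPM in control (log2 -0.58 ± 0.08 under TMM, 0.33 under epithelial scaling).

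The chaperonins fold actin, tubulin and mitochondrial matrix proteins inside a double ring. Under TMM scaling 8 of 10 were lower with methotrexate than in control and 0 higher (median log2 -0.52), where 29.1% of all genes were lower, whereas under epithelial scaling 9 were higher (median 0.39), where 75% of all genes were. CCT3 averaged 289 CPM with methotrexate and 435 CPM in control, and CCT6A averaged 243 CPM with methotrexate and 357 CPM in control. Co-chaperones went both ways, with 5 of 18 higher, 9 lower and 4 not called under TMM and 15 higher under epithelial scaling. BAG3 averaged 79.7 CPM with methotrexate and 52.6 CPM in control (log2 0.60 ± 0.09), and ST13, which stabilises client-bound HSP70, 494 CPM with methotrexate and 397 CPM in control (log2 0.31 ± 0.08). STIP1, the adaptor between HSP70 and HSP90, had a log2 fold change of -0.67 ± 0.08 under TMM and 0.24 under epithelial scaling, and CHORDC1 had -0.83 ± 0.13 and 0.08.

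In the list of heat shock factors and related stress genes, 4 of 9 were higher with methotrexate, 3 lower and 2 not called, with 8 higher under epithelial scaling. ATF3, an immediate stress transcription factor, averaged 56.6 CPM with methotrexate and 2.76 CPM in control (log2 4.36 ± 0.22, adjusted p = 6.80e-11). HSF1, the factor that drives the heat shock response, was not called under TMM, at a log2 fold change of 0.09 ± 0.14 (adjusted p = 0.578), but was called higher under epithelial scaling, at 1.01 (adjusted p = 9.04e-06). UBB, which encodes ubiquitin, averaged 257 CPM with methotrexate and 417 CPM in control (log2 -0.70 ± 0.21 under TMM, 0.22 under epithelial scaling). HSBP1, which binds heat shock factor trimers, had a log2 fold change of -0.55 ± 0.09 under TMM and 0.36 under epithelial scaling.

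In the ER, 2 of 16 chaperones were higher with methotrexate, 10 lower and 4 not called (median log2 -0.30), where 35.4% of all genes were higher and 29.1% lower, and 14 were higher under epithelial scaling (median 0.62), where 75% of all genes were. SIL1, the nucleotide exchange factor of BiP, averaged 57.0 CPM with methotrexate and 23.5 CPM in control (log2 1.28 ± 0.13), and the J-domain protein DNAJB9 36.7 CPM with methotrexate and 18.3 CPM in control (log2 1.01 ± 0.15). HYOU1, an ER HSP110, averaged 251 CPM with methotrexate and 481 CPM in control, a log2 fold change of -0.94 ± 0.11 under TMM and -0.02 (adjusted p = 0.863) under epithelial scaling. CALR, the lectin chaperone calreticulin, had -0.52 ± 0.10 under TMM and 0.40 under epithelial scaling. Of 16 disulfide and prolyl isomerases and oxidases, 2 were higher, 8 lower and 6 not called, with 12 higher under epithelial scaling. ERO1LB averaged 7.49 CPM with methotrexate and 1.07 CPM in control (log2 2.81 ± 0.27), and FKBP14, a collagen-directed prolyl isomerase, 33.5 CPM with methotrexate and 15.04 CPM in control (log2 1.15 ± 0.15). PDIA4 averaged 316 CPM with methotrexate and 590 CPM in control, and FKBP11 averaged 34.8 CPM with methotrexate and 65.1 CPM in control, both with log2 -0.90 under TMM and 0.02 and 0.01 under epithelial scaling.

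Among sensors and targets of the unfolded protein response, 8 of 20 were higher with methotrexate, 2 lower and 10 not called (median log2 0.17), where 35.4% of all genes were higher and 29.1% lower. Under epithelial scaling 17 were higher, where 75% of all genes were. DDIT3 (CHOP), the transcription factor of terminal ER stress, averaged 18.3 CPM with methotrexate and 5.06 CPM in control (log2 1.85 ± 0.15, adjusted p = 1.87e-08). DERL1, a channel component of ER-associated degradation, averaged 107 CPM with methotrexate and 38.8 CPM in control (log2 1.47 ± 0.10). XBP1, the transcript that the sensor IRE1 splices, averaged 168 CPM with methotrexate and 297 CPM in control (log2 -0.82 ± 0.13 under TMM, 0.09 under epithelial scaling), and EDEM2 had -0.46 ± 0.10 and 0.46.

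**Figure D4:**
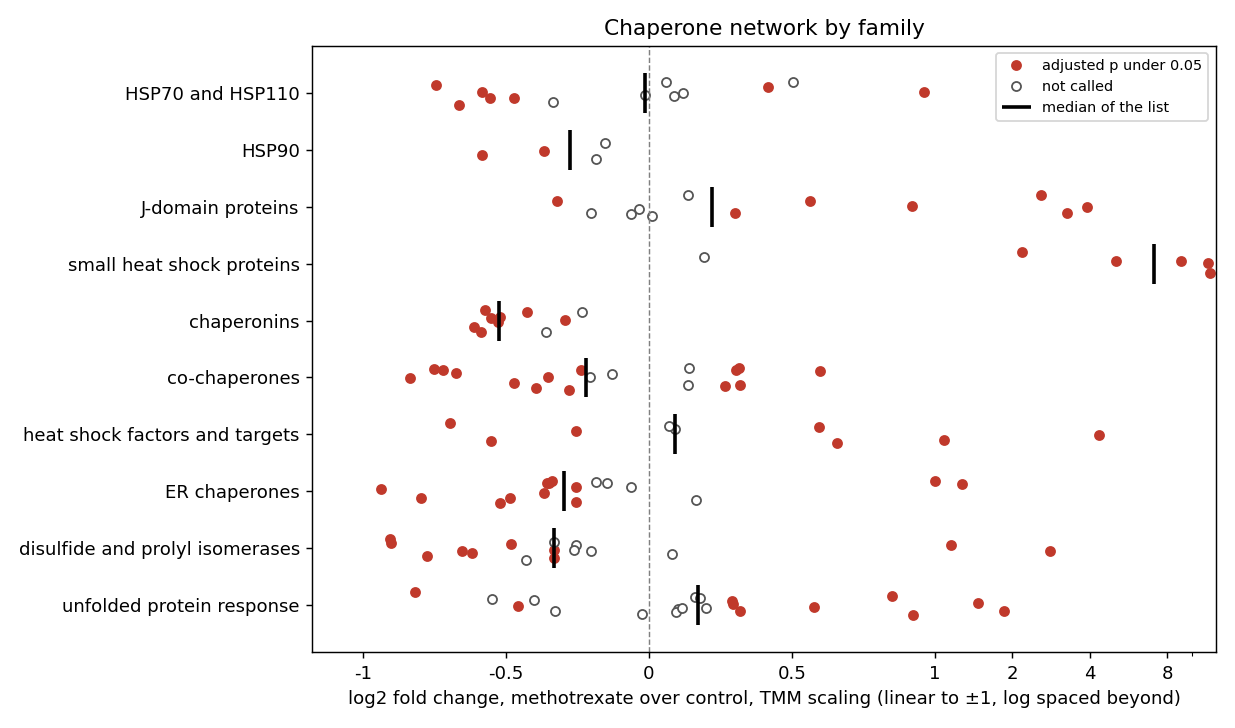
Log2 fold change of methotrexate over control under TMM scaling for each tested gene of the 10 chaperone lists, on an axis that is linear to ±1 and log spaced beyond, with black ticks at the list medians. Small heat shock proteins lie farthest to the right, with fitted values of HSPB6 and HSPB7 that depend on the prior count, and chaperonins lie left of 0, a side that turns to a median of 0.39 under epithelial scaling.

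The next comparison asks how libraries with both agents differed from those with methotrexate alone. HSPA8, HSPA5, HSP90B1 and HSPH1 were higher with both agents under TMM, and under epithelial scaling all 4 had log2 fold changes below 0. DNAJB1, HSPB1 and CRYAB were lower with both agents under both scalings. Under TMM 4 members were called higher and 3 lower, where 28.8% of all genes were called higher and 34.4% lower. The 3 lower include CRYAB, which passed the filter on low counts only through the methotrexate libraries and so had to differ. Under epithelial scaling 0 members were higher and 9 lower, where 0.908% of all genes were higher and 73.7% lower. This comparison shares the methotrexate libraries with the one against control, so its values are not independent of it.

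HSPA8 differed by log2 0.72 ± 0.09 (adjusted p = 2.47e-06) under TMM and -0.17 under epithelial scaling. HSP90B1 differed by 0.43 ± 0.09 (adjusted p = 0.000992) and -0.46, HSPA5 by 0.28 ± 0.08 (adjusted p = 0.0049) and -0.60, and HSPH1 by 0.57 ± 0.12 (adjusted p = 0.000621) and -0.31. For these 4 genes every library with both agents lay above every methotrexate library on the TMM scale, as for 30.2% of all genes. HSPB1 averaged 68.5 ± 14.2 CPM with both agents and 308 ± 48.2 CPM with methotrexate alone (SD, n = 3 each), a log2 fold change of -2.17 ± 0.16 (adjusted p = 4.85e-09). DNAJB1 differed by -0.70 ± 0.12 (adjusted p = 0.00012) and CRYAB, which had to differ by the filter, by -8.82 ± 0.30. HSPB1, DNAJB1 and CRYAB were lower in every library with both agents than in any methotrexate library, as were 36.3% of all genes. HSP90AA1 was not called at 0.16 ± 0.09 (adjusted p = 0.127) under TMM and was lower, at -0.72, under epithelial scaling. HSPA1A and HSPA1B differed by -0.21 ± 0.30 (adjusted p = 0.565) and -0.07 ± 0.27 (adjusted p = 0.824). Without methotrexate library 3 they differed by 0.54 ± 0.12 (adjusted p = 0.00124) and 0.55 ± 0.12 (adjusted p = 0.00127), and under epithelial scaling by -1.10 and -0.97.

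Libraries with both agents were set against control as well, and lactoferrin against control. In both comparisons 0 of the 10 members were called, where 0.0299% of all genes were called with both agents and 0% with lactoferrin. At an unadjusted p under 0.05, 591 genes, or 3.53% of those tested, passed for both agents and 628, or 3.75%, for lactoferrin. DESeq2 called 15 and 0 genes. HSPA8 had the lowest p of the members with lactoferrin. In that group all 3 libraries lay below the 3 control libraries, and the log2 fold change was -0.21 ± 0.09 (95% interval -0.39 to -0.03, unadjusted p = 0.0253, adjusted p = 1). A complete separation in either direction was seen for 10.1% of all genes in that comparison. With both agents HSPA8 differed from control by -0.03 ± 0.09, with an interval of -0.21 to 0.15.

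The 95% intervals cover the spread between these libraries, which may be technical, and are not adjusted for the number of genes. They do not bound a difference between separate cultures. For HSPA5 the 95% interval was -0.22 to 0.11 with both agents and -0.26 to 0.07 with lactoferrin. HSP90B1 had -0.14 to 0.26 with both agents and -0.16 to 0.24 with lactoferrin, and HSP90AA1 had -0.18 to 0.21 with both agents and -0.34 to 0.05 with lactoferrin. These abundant genes had narrower intervals than the rest apart from HSPA8. The co-chaperones had wider intervals, with DNAJB1 at -0.40 to 0.12 with both agents and -0.37 to 0.15 with lactoferrin, and HSPH1 at -0.24 to 0.27 with both agents and -0.20 to 0.31 with lactoferrin. HSPB1 had -0.31 to 0.33 with both agents and -0.27 to 0.37 with lactoferrin. HSPA1A had -0.74 to 0.56 with both agents and -0.75 to 0.55 with lactoferrin, and HSPA1B had -0.58 to 0.56 with both agents and -0.53 to 0.61 with lactoferrin. The spread behind the HSPA1A and HSPA1B intervals was estimated with methotrexate library 3 included. For CRYAB, small differences were not detectable at this depth, with intervals of -1.13 to 1.66 with both agents and -1.91 to 1.24 with lactoferrin. Of the 121 network genes tested, 0 were called in either comparison.

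**Figure D5:**
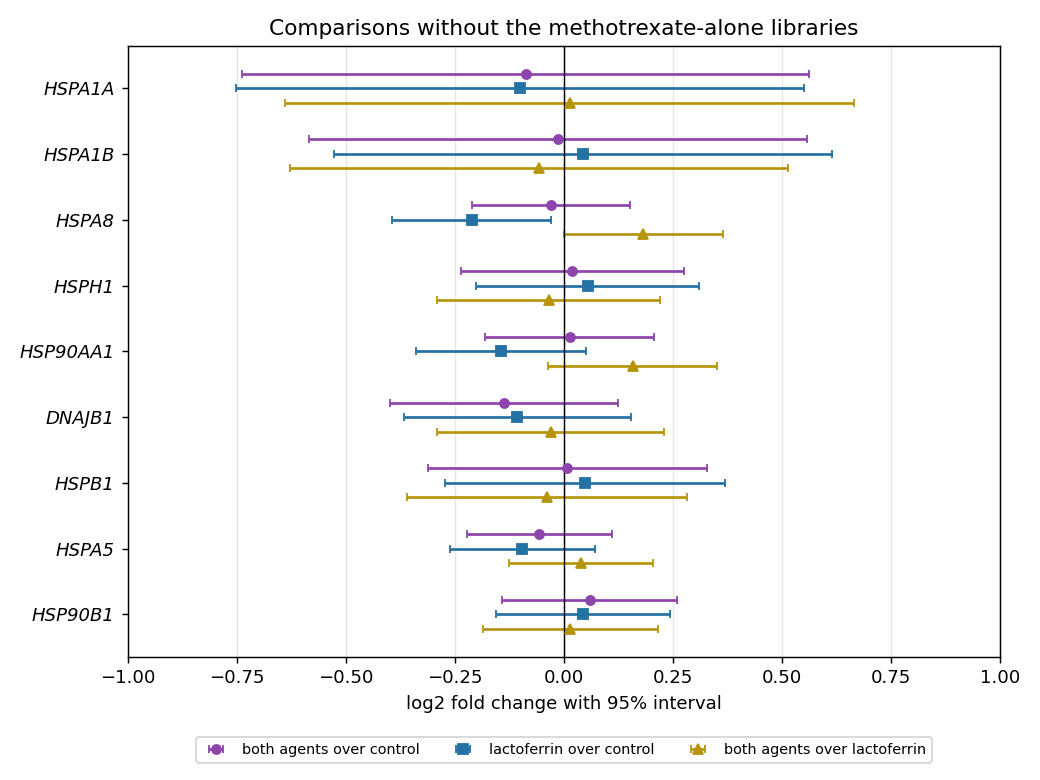
Log2 fold changes with 95% intervals for 9 of the genes in the 3 comparisons that leave out the libraries with methotrexate alone; CRYAB, whose intervals are wider than the axis, is not drawn. HSPA8 with lactoferrin over control, at -0.21, is the value whose interval lies wholly below 0. The interval of HSPA8 with both agents over lactoferrin, 2.46e-05 to 0.36, lies just above 0.

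Both agents were also compared with lactoferrin alone, which asks what methotrexate added in its presence. Again 0 members were called, where 0.0179% of all genes were called, 565, or 3.38%, passed at an unadjusted p under 0.05 and DESeq2 called 7. HSPA8 and HSP90AA1 had all 3 libraries with both agents above all 3 with lactoferrin, at log2 0.18 ± 0.09 (unadjusted p = 0.04997, adjusted p = 1) and 0.16 ± 0.09 (unadjusted p = 0.105, adjusted p = 1). Such a separation was seen in the higher direction for 3.67% of all genes. HSPB1 differed by -0.04 ± 0.15 and DNAJB1 by -0.03 ± 0.12.

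Whether the methotrexate difference depended on lactoferrin was tested with the interaction term, which is the log2 fold change of both agents over lactoferrin minus that of methotrexate over control. CRYAB passed the filter on low counts only through the methotrexate libraries, so its interaction had to differ from 0. The interaction term was called for 7 members, CRYAB among them, where 46.7% of all genes were called. It was above 0 for HSPA8, HSPH1, HSP90B1 and HSPA5 under TMM, where 20.6% of all genes were, and under epithelial scaling HSPH1, HSP90B1 and HSPA5 turned below 0 and HSPA8 was at 0.02 (adjusted p = 0.935). Epithelial scaling gave 0 members called above 0 and 7 below, where 0.382% and 64.6% of all genes were called. It was below 0 for CRYAB, HSPB1 and DNAJB1 under both scalings, where 26.1% of all genes were under TMM. HSPB1 had -2.22 ± 0.21 (adjusted p = 5.65e-07), CRYAB -8.48 ± 1.15 and DNAJB1 -0.59 ± 0.17 (adjusted p = 0.0108). HSPA8 had 0.93 ± 0.12 (adjusted p = 1.53e-05), HSPH1 0.52 ± 0.17 (adjusted p = 0.0202), HSP90B1 0.38 ± 0.13 (adjusted p = 0.0282) and HSPA5 0.38 ± 0.11 (adjusted p = 0.0108). HSP90AA1 (0.31 ± 0.13, adjusted p = 0.0605), HSPA1A (-0.11 ± 0.43, adjusted p = 0.87) and HSPA1B (-0.12 ± 0.38, adjusted p = 0.836) were not called. The values rest on the same methotrexate libraries that carry the high adipocyte and fibroblast markers, whose summed levels with both agents were 30.4 to 36.9 CPM and 936 to 1086 CPM, near those of control.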

How the data were processed

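RNA of 12 Caco-2 spheroid samples, 3 per group, was analysed from 1 deposited table of whole-number counts per gene, in which the authors left the values unscaled. Per the submitters' processing notes, CASAVA, STAR and DESeq2 were used with build hg19. The sources used here do not give versions, annotation, counting program or strand setting. Gene coordinates and gene lengths in bases come from the deposited table, and symbols picked the 10 genes. Library totals of 18714054 to 60591667 counts put 3 counts at 0.160 to 0.0495 CPM, and intervals from counts cover counting error only. In every group, counts of any pair of libraries differed by more than sampling noise.

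Counts were fitted in R 4.3.3 with edgeR 4.0.16: filterByExpr kept 16733 of 48162 genes, TMM factors were 0.852 to 0.884 for methotrexate and 1.01 to 1.08 for the others, and the model had 1 mean per group over all 12 libraries, with a biological coefficient of variation of 12.9%. The quasi-likelihood F test gave 6 comparisons, each adjusted by Benjamini-Hochberg over all genes and called under 0.05. The edgeR fit was tested on simulated counts with known changes in a small part of the genes. Those counts held no true interaction. The motif search was tested on planted letters, and the other steps were not tested in this way. Ratios within libraries used exact permutation tests. Promoters were taken from RefSeq on GRCh38.p14.

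The 10 genes, the network lists, the marker lists and the epithelial scaling were chosen with earlier results of these data known. Beside the 10 genes, the text names from each network list up to 2 genes called higher and 2 called lower with the lowest p against control, and the 5 genes most like the member with the widest range. The result of 1 gene that this rule selects is not reported here. HSF1, HSPB7, HSPB11, HSPA1L, the overlapping genes and those in the closing section were named after their values were seen. Alternatives were the Wald test of DESeq2 1.42.0, edgeR with relative log expression factors, epithelial scaling, HSPA1A and HSPA1B summed, no filter, a replicate term, the compared groups alone, a fit without the methotrexate libraries, thinned methotrexate libraries, the submitters' threshold of over 2-fold and an adjusted p under 0.01, and leaving out each library. The sums of HSPA1A and HSPA1B and the epithelial scaling, each without methotrexate library 3, were added after seeing the data.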

Additional observations from a re-analysis of the deposited data

Results flagged for a closer look

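For 7 of the 10 genes, where 46.7% of all genes were called, the log2 fold change of methotrexate differed between spheroids with and without lactoferrin, by the interaction test of edgeR with Benjamini-Hochberg adjustment. The interaction was 0.93 for HSPA8, 0.38 for HSPA5, 0.38 for HSP90B1 and 0.52 for HSPH1 under TMM scaling, but 0.02, -0.53, -0.53 and -0.39 under epithelial scaling, where HSPA8 (adjusted p = 0.935) and HSPH1 (adjusted p = 0.0733) were not called. There HSP90AA1 at -0.60 and HSPA1B at -1.04 were called instead. It was -0.59 for DNAJB1, -2.22 for HSPB1 and -8.48 for CRYAB under TMM, and -1.51, -3.12 and -9.39 under epithelial scaling. CRYAB passed the filter on low counts only through the methotrexate libraries. The summed epithelial markers were lower, and the adipocyte and fibroblast markers higher, in the same 3 methotrexate libraries, and their part in these values was not tested. No group was tested for single outlying libraries, since each holds 3.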

How the results depend on the processing

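The scaling decided most directions. Under epithelial scaling members called were 9 higher and 0 lower for methotrexate against control, 0 and 9 for both agents against methotrexate, and 0 and 7 for the interaction. For methotrexate against control the values turned to 0.17 for HSPA8, 0.58 for HSPA5, 0.76 for HSP90AA1, 0.55 for HSP90B1 and 0.36 for HSPH1. For both agents against methotrexate they turned to -0.17, -0.60, -0.72, -0.46 and -0.31 in that order, and for the interaction to -0.53 for HSPA5, -0.60 for HSP90AA1, -0.53 for HSP90B1 and -0.39 for HSPH1. With HSPA1A and HSPA1B summed and methotrexate library 3 left out, the values turned to -0.59, 0.54 and 0.55 for these 3 comparisons. At the submitters' threshold, genes called were 4525 for methotrexate against control, 4399 for both agents against methotrexate, 3296 for the interaction and 2 for both agents against control, with 0 members lower in the first and 0 higher in the next 2. DESeq2 called 15 genes for both agents against control and 7 against lactoferrin. Without a filter 17 genes were called for lactoferrin against control, 38 for both agents against control and 19 for both agents against lactoferrin, and the interaction had 2 members higher. In fits of the compared groups alone, or without the methotrexate libraries, both agents against control and against lactoferrin had 0 genes called each. The interaction needs all 4 groups and was not run on compared groups alone. Replicate numbers did not pair the libraries: 2 of 18 correlations between same-numbered libraries were over 0.1, in a range of -0.22 to 0.12. A replicate block gave 3 genes for both agents against control. Leaving out single libraries gave 0 to 8 genes for both agents against control, 0 to 5 against lactoferrin, and 2 to 6 interaction members higher. For methotrexate against control it gave HSPA1A -0.63 to 0.39 and HSPA1B -0.56 to 0.31, for both agents against methotrexate -0.48 to 0.54 and -0.33 to 0.55, and for the interaction -0.38 to 0.64 and -0.37 to 0.50. HSP90B1 lost its interaction call without control 1, both agents 3, lactoferrin 1 or 3, or methotrexate 1 or 2, at 0.32 to 0.36. HSPH1 lost its interaction call without control 3, lactoferrin 1 or methotrexate 2, at 0.43 to 0.47. Over all libraries left out singly, the interaction was 0.32 to 0.45 for HSP90B1 and 0.43 to 0.62 for HSPH1. HSP90AA1 gained a call with the methotrexate libraries thinned, at 0.33 (adjusted p = 0.0493), and without control library 2, at 0.39 (adjusted p = 0.0222). Without methotrexate library 3, HSPA1A was called at 0.64 (adjusted p = 0.00472) and HSPA1B at 0.50 (adjusted p = 0.0209). The cause of these changes was not tested.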

Other observations

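Methotrexate library 3 differed from libraries 1 and 2 in both directions among the 121 network genes tested, with 73 above and 48 at or below the mean of the other 2 libraries. HSPA1A was 3.03 times and HSPA1B 2.61 times the mean of the other 2 methotrexate libraries. These were the 3rd and 4th highest ratios among 10073 genes of at least 10 CPM, of which 19, or 0.189%, exceeded 2 and whose median ratio was 0.966. USP2, a deubiquitinase, at 3.86, and TUFT1 at 3.22 stood above them. In the chaperone network, chosen after the values were seen, the liver and gut transcription factor CREB3L3 had 7.83, 7.60 and 16.8 CPM in methotrexate libraries 1 to 3. HSPA2, a testis and neuron HSP70, had 10.6, 10.4 and 21.0 CPM. IER5, a heat shock factor 1 target, had 35.6, 35.5 and 62.5 CPM, and the mitochondrial co-chaperonin HSPE1 16.9, 21.6 and 33.4 CPM. Of the other members, DNAJB1 in library 3 was at 1.20 times, HSPH1 at 1.10 times, CRYAB at 0.991 times and HSPB1 at 0.827 times the mean of libraries 1 and 2. The lowest ratios in the network were those of TRIB3, a pseudokinase induced by ER stress, with 84.5, 66.6 and 41.6 CPM in libraries 1 to 3, XBP1 at 0.641 and HSPBP1 at 0.715.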
